A study of Mus musculus with 8 samples.

Results

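The 39 Hox genes of the mouse were described in single cells of the fetal kidney. Members were taken by symbol, as every row of the deposited count table named Hoxa, Hoxb, Hoxc or Hoxd with a number, which gave 39 of the 32285 genes. The Hoxa cluster had 11 members, the Hoxb cluster 10, and the Hoxc and Hoxd clusters 9 each. Cell types were defined without these genes, since the Hox genes and the other transcripts of their clusters were left out when cells were grouped.

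Hox genes encode homeodomain transcription factors that give cells their position along the body axis. They lie in 4 clusters that arose by duplication, and members at the same place in different clusters form paralog groups, numbered in the order of the genes along a cluster. Genes of low-numbered groups are typically active further towards the head and earlier, and genes of high-numbered groups further towards the tail and later. In the kidney, the group 11 paralogs Hoxa11, Hoxc11 and Hoxd11 are redundant with one another. They act together with Eya1 and Pax2 in the metanephric mesenchyme to drive Six2 and Gdnf. Hoxb7 is the gene whose promoter is widely used to mark the ureteric bud, the epithelial tree that becomes the collecting ducts.

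The kidneys of 4 male embryos were dissociated and sequenced in 1 pool with a 3' droplet protocol. The pool also held 4286 cells with tags that the deposited tag list does not name, which were not used here. The labels give E17.5 as their age and the study's methods give a later day, and which is right could not be settled from the data. Each mouse carried its own multiplexing tag, a DNA oligonucleotide bound to the cell membrane. Mice 1 and 2 (tagged ko) were Trim28Δ/Δ, in which a Six2-cre transgene deletes the floxed Trim28 alleles in nephron progenitors and thereby in the epithelium that descends from them, and mice 3 and 4 (tagged wt) were Trim28f/f, with floxed alleles and intact Trim28. TRIM28 is a co-repressor that KRAB zinc finger proteins bring to DNA. Ureteric, interstitial, endothelial and blood cells lie outside the lineage of the Cre driver, and each genotype was represented by 2 mice only.

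The 4 mice had 1423, 1548, 2134 and 1762 cells, 6867 of the 19273 kept in the pool, with median totals between 16474 and 17098.5 unique molecular identifiers (UMIs) per cell. The cells fell into 24 clusters, of which 17 were named from marker genes and joined into 13 classes (written with the ending -like), and 7 were kept by number, so that 20 classes were described. Every named cluster had at least 5 of its listed markers above the threshold. Mouse 3 stood apart, since 168 of the 171 cells of cluster 15, 1 of the clusters joined in the collecting duct-like class, came from it, whereas the cells of the other mice were in cluster 11, and only 3 of its cells were in cluster 16. Levels are given as CPM, the UMIs of a gene per 1000000 UMIs of the class in each mouse. Trim28 was at 44.8 and 30.2 CPM in the nephron progenitor-like cells of the Trim28Δ/Δ mice and 142.4 and 160.8 in those of the Trim28f/f mice (log2 change −2.17, edgeR adjusted p = 0.0017), and 105.6 and 103.8 against 84.1 and 116.4 in stroma-like cells. Since a 3' protocol reads the end of a transcript, UMIs can come from outside the deleted part of the gene.

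In the GENCODE annotation of GRCm38, the Hoxa cluster spans chr6:52155590-52260880 on the minus strand. The other clusters lie on the plus strand, Hoxb at chr11:96194316-96368256, Hoxc at chr15:102921103-103036852 and Hoxd at chr2:74668310-74765142. On each of these the numbers fall from left to right by the ends of the genes. The results turn on the Hoxd cluster at one place, between Hoxd10 and Hoxd9, which differed most in where they were found. The 250 bases before the start of the 4 Hoxd genes around this place, from RefSeq on GRCm38.p6, are therefore shown, 5′ to 3′ on the plus strand, with the letters TAAT and their reverse complement ATTA, the core that many homeodomains bind, in capitals.
Hoxd11, start 1, chr2:74679308-74679557: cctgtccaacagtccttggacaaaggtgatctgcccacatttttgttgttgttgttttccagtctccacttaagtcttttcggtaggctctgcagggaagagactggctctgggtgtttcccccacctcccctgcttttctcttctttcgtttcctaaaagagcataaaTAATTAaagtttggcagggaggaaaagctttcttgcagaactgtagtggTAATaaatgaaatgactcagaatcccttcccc
Hoxd11, start 2, chr2:74682073-74682322: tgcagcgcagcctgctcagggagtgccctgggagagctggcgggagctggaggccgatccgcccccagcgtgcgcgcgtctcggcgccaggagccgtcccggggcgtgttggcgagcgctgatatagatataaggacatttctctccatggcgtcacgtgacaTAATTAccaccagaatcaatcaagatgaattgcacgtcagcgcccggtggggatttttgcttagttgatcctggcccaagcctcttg
Hoxd10, chr2:74691641-74691890: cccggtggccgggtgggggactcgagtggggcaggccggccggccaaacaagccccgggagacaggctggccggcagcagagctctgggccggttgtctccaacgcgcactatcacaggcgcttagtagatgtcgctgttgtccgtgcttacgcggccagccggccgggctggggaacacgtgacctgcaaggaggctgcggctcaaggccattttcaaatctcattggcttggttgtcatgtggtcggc
Hoxd9, chr2:74697513-74697762: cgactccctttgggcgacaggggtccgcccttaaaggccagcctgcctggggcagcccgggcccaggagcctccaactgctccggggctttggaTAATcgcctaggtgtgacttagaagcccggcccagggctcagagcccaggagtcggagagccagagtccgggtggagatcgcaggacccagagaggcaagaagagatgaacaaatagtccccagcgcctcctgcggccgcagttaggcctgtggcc
Hoxd8, chr2:74704365-74704614: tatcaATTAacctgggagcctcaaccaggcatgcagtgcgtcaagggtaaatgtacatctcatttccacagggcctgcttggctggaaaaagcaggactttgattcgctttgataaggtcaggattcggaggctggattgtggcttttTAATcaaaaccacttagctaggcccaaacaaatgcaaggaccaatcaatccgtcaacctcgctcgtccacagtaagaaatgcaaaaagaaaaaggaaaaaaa

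TAAT was found, on either strand and with overlaps counted, 3 times and 2 times before the starts of Hoxd11, 0 times before Hoxd10, 1 time before Hoxd9 and 2 times before Hoxd8. RefSeq promoters were at hand for 22 of the 39 members, with 24 starts. TAAT was in 18 of these 24 windows (75%) and in 54.9% of all 32851 windows of the same length. The Hox windows held a median of 12.5 CpG, against 6 over all windows. These are matches of letters, and no binding was measured.

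Of the 134576095 UMIs of the assigned cells, 172005 (0.128%) fell on Hox genes. The Hoxb cluster took 48.4% of them, Hoxd 21.4%, Hoxa 19.6% and Hoxc 10.6%. In all, 24 members had at least 1000 UMIs and 8 had under 100. The ends of the clusters nearest the tail were almost silent: Hoxa13 had 4 UMIs, Hoxc13 and Hoxd13 3 each, Hoxc12 1 and Hoxb13 0, which allows at most 0.0223 CPM. UMIs of a 3' protocol were not scaled by gene length, so levels of different genes set side by side are numbers of captured molecules. Exon bases are shared on the same strand between Hoxc5 and Hoxc10 and between Hoxd3 and Hoxd4, and UMIs there could be given to either gene of the pair. Means are given with the SD over mice.

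**Figure D1:**
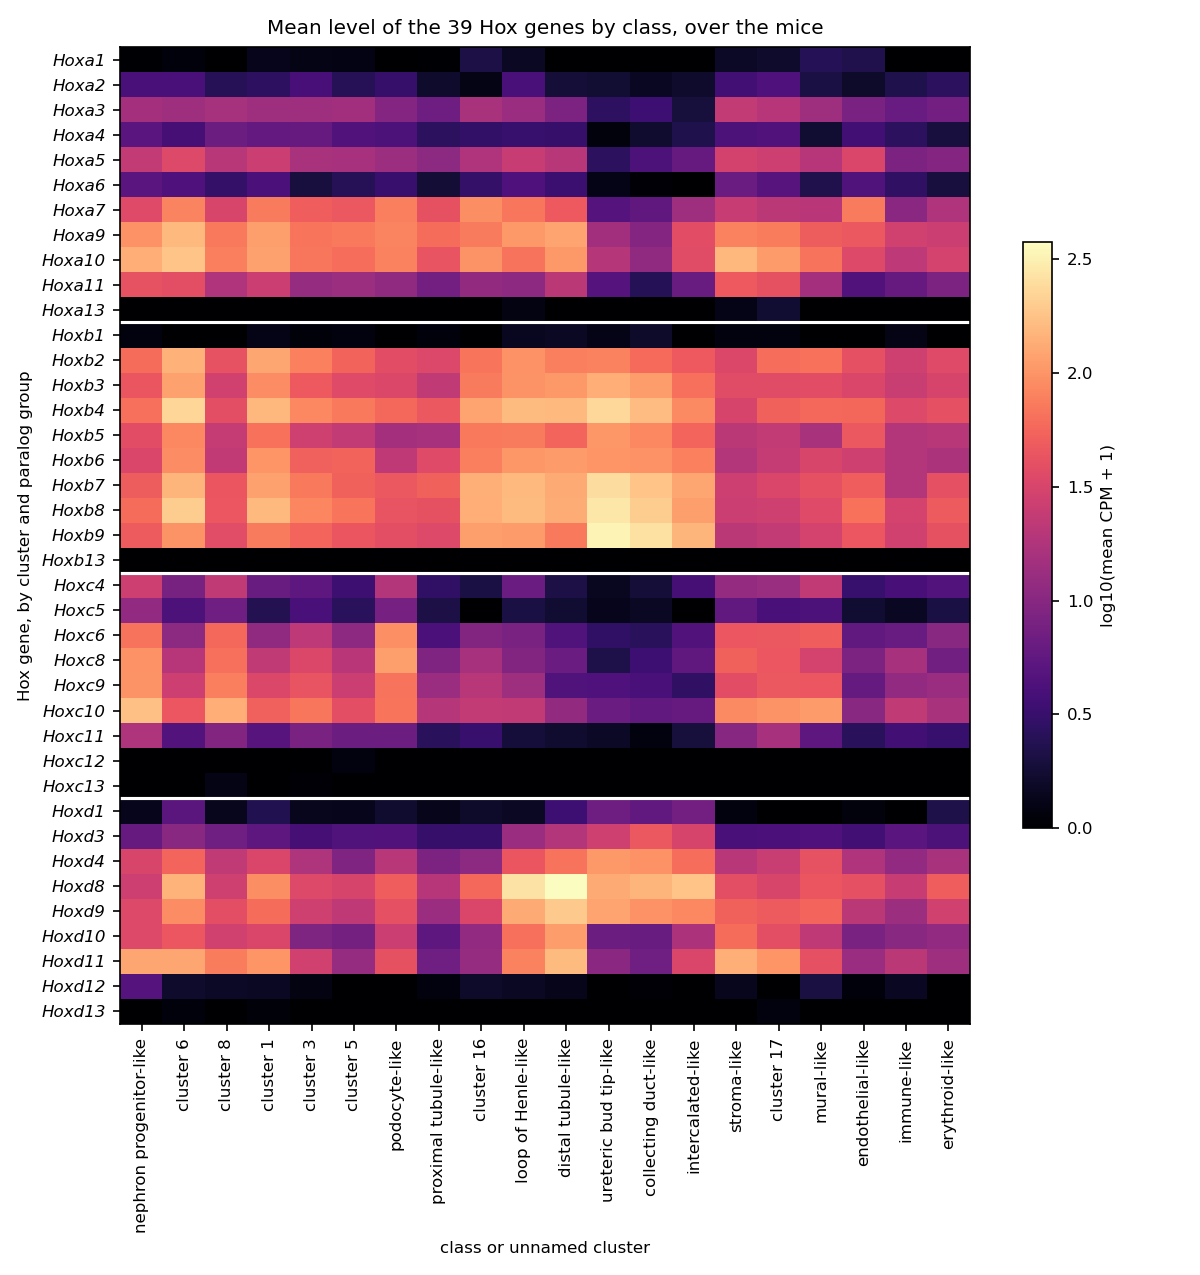
Level of each of the 39 Hox genes (rows, by cluster) in each class of cells (columns), as log10 of the mean CPM over mice plus 1. The ureteric bud tip-like and collecting duct-like columns are bright in the Hoxb rows and up to Hoxd9 in the Hoxd rows, and dark in the Hoxa and Hoxc rows.

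Summed over the 39 members, Hox UMIs were most frequent in cluster 6 (2208 ± 116 CPM, SD, n = 4), whose leading genes were Spon1, Fgf8 and Epha4, and in distal tubule-like (2111 ± 368), ureteric bud tip-like (1977 ± 171) and loop of Henle-like cells (1905 ± 354). Nephron progenitor-like cells (NPC-like) had 1486 ± 144 CPM, stroma-like cells 1134 ± 79.7, podocyte-like cells 1114 ± 18, and proximal tubule-like cells 543 ± 58.3. The lowest sum was that of immune-like cells, 415 ± 74.3. The values of the first 4 classes overlapped between mice, whereas no mouse had more than 609 CPM in proximal tubule-like cells.

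Free RNA in the droplets gives every cell some Hox UMIs. Barcodes with 10 to 100 UMIs were used to measure it, and the markers of other cell types were used to estimate its share in each class, as the median over the marker lists, from 11.2% of the UMIs of proximal tubule-like cells to 48.2% of those of immune-like cells. The lists differed widely, from 6.01% to 52.8% in proximal tubule-like, 6.2% to 26.8% in ureteric bud tip-like and 14.5% to 201.7% in immune-like cells, so the expected levels are rough and depend on this choice. For immune-like cells the median gave an expected 543.5 Hox CPM, above the 415 observed, and for erythroid-like cells 421.6, against 534 ± 215. Neither class had a single member that was over 2 times its free RNA level and over 1 CPM in every mouse. By this measure 28 members were present in NPC-like, 29 in cluster 6, 26 in loop of Henle-like, 21 in distal tubule-like, 20 in stroma-like, 19 in podocyte-like, 17 in proximal tubule-like and 13 in both ureteric bud tip-like and collecting duct-like cells.

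Ureteric bud tip-like and collecting duct-like cells, called the ureteric classes here, had mostly genes of the Hoxb cluster and of part of the Hoxd cluster. In ureteric bud tip-like cells, the branching ends of the tree, Hoxb genes summed to 1625, 1600, 1322 and 1516 CPM in mice 1 to 4, or 76.7% of all Hox UMIs. The collecting duct-like cells, which concentrate urine, had 1284, 1272, 904 and 1198 CPM of Hoxb, or 72.4%. Stroma-like cells had 222, 189, 184 and 233 CPM, so that no mouse of the ureteric classes was near them. Other classes lay closer. Without mouse 3, the mean Hoxb sum was 1251 CPM in collecting duct-like cells, 1122 in cluster 6 and 1020 in loop of Henle-like cells.

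Of the 10 Hoxb genes, 6 had their highest mean in ureteric bud tip-like cells. Hoxb9, the last gene of the cluster before the silent Hoxb13, was at 339, 341, 337 and 314.5 CPM there, at 274, 283, 238.5 and 258 in collecting duct-like cells, and at 24.6, 19.7, 17.7 and 18.3 in stroma-like cells. Hoxb8 was at 321, 295, 235 and 278 CPM, and Hoxb4 at 276, 252, 189 and 218, in the ureteric bud tip-like cells of the 4 mice. All 4 mice had more of these genes there than any mouse had in stroma-like cells, the class with their lowest means. Hoxb4 was nearly as high in cluster 6, with a mean of 227 CPM against 234, and the mice overlapped. Of the 6 genes, only Hoxb8 and Hoxb9 did not overlap between mice with the class that came next. Hoxb7 was at 283, 260, 156 and 297 CPM in ureteric bud tip-like cells and at 218, 218, 101 and 191 in collecting duct-like cells. Mouse 3 was the lowest in both. Hoxb7 was not particular to the ureteric tree, with 155 ± 52 CPM in loop of Henle-like and 130 ± 37.4 in distal tubule-like cells, against 26.4 ± 7.3 in stroma-like cells, where 18 CPM were expected from free RNA.

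Hoxa and Hoxc genes were at the level of free RNA in both ureteric classes. Together they summed to 57.5 CPM in ureteric bud tip-like cells and 45.1 in collecting duct-like cells, where free RNA alone gave an expected 55.7 and 55.8. No Hoxa and no Hoxc gene passed the free RNA measure in either class, against 8 Hoxa and 7 Hoxc genes in NPC-like cells. Hoxc10, for example, was at 3.61, 8.19, 3.15 and 7.69 CPM in ureteric bud tip-like cells, with 6.58 expected, and at 161, 182, 144.5 and 195 in NPC-like cells. The lowest mouse among NPC-like cells was thus far above the highest among ureteric bud tip-like cells. Intercalated-like cells, the acid-base regulating cells of the collecting duct, also had no Hoxc gene above free RNA, but Hoxa5 and Hoxa9 passed, the latter at 30.4, 28.1, 38.5 and 51.2 CPM in 64 cells of all mice.

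**Figure D2:**
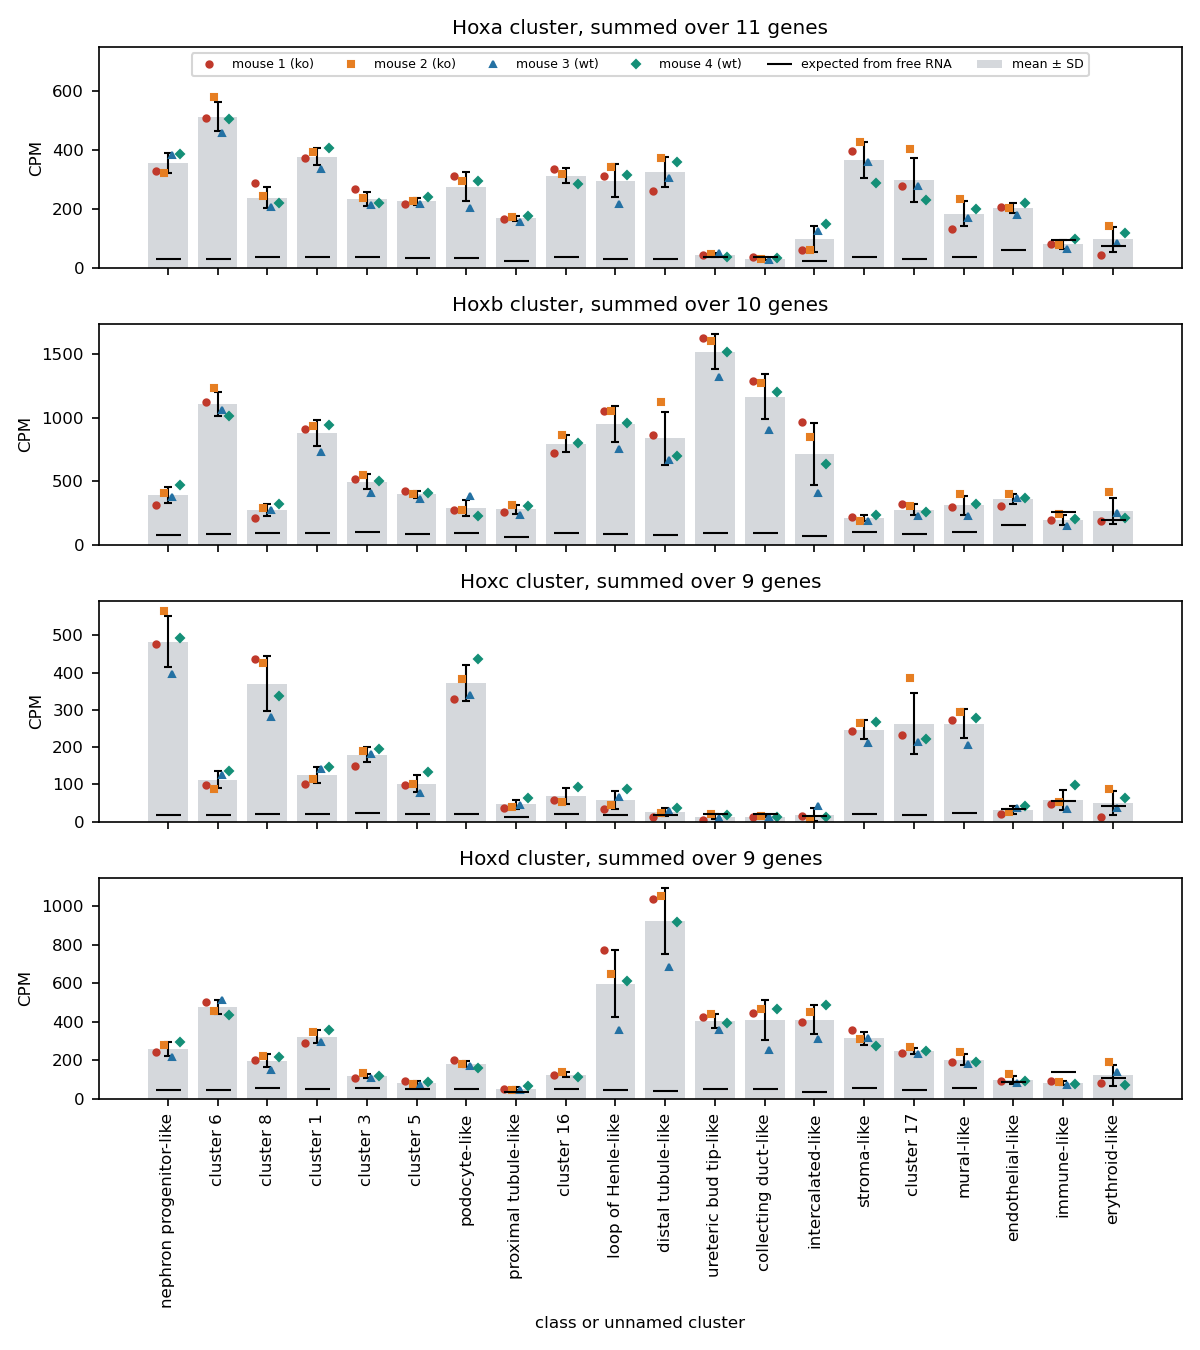
Summed CPM of the Hoxa, Hoxb, Hoxc and Hoxd genes in each class. Points are mice, bars their mean with the SD, and black dashes the level expected from free RNA. The Hoxc panel shows NPC-like cells at 482 CPM and both ureteric classes at 13.3 CPM, below their dashes.

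The Hoxd cluster was divided between Hoxd9 and Hoxd10 in both ureteric classes. Hoxd9 was at 126, 142, 80.7 and 131 CPM in ureteric bud tip-like cells, and its neighbour Hoxd10 at 10.8, 7.56, 1.89 and 2.56, with 4.82 expected from free RNA. In collecting duct-like cells Hoxd9 was at 117, 111, 41.9 and 118 CPM and Hoxd10 at 5.8, 5.26, 2.82 and 7.63. Hoxd1, Hoxd3, Hoxd4, Hoxd8 and Hoxd9 passed the free RNA measure in both classes, and Hoxd10 to Hoxd13 did not. Intercalated-like cells, which also belong to the collecting duct, did not show the division as sharply. There Hoxd10 passed the measure, at 7.61, 9.36, 24.1 and 23 CPM with 3.41 expected, and Hoxd9 was at 76.1, 133, 19.2 and 110.1 CPM. The class had 64 cells, 12 of them from mouse 3, in which both genes rest on a few UMIs. Hoxd4 was highest in ureteric bud tip-like cells, at 93.8, 127, 100.2 and 103 CPM, followed by collecting duct-like cells (96.3 ± 23.9).

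Distal tubule-like cells, which adjoin the collecting duct but come from nephron progenitors, did not show this division. Hoxd10 was at 102, 110, 101 and 130 CPM and Hoxd11 at 177, 166.5, 149 and 146. All 4 mice had more of both than any mouse had in the ureteric classes. Across the 20 classes, the levels of Hoxd9 and Hoxd10 were the least alike of the 23 pairs of neighbouring genes compared, with Spearman's rho of 0.511 (a description, as the classes share mice, depth and free RNA), against 0.958 for Hoxd10 and Hoxd11 and 0.826 for Hoxd8 and Hoxd9. The pair of Hoxc9 and Hoxc10, at the same place of the Hoxc cluster, had the highest rho, 0.974. The windows before Hoxd10 and Hoxd9 shown above held 20 and 13 CpG.

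**Figure D3:**
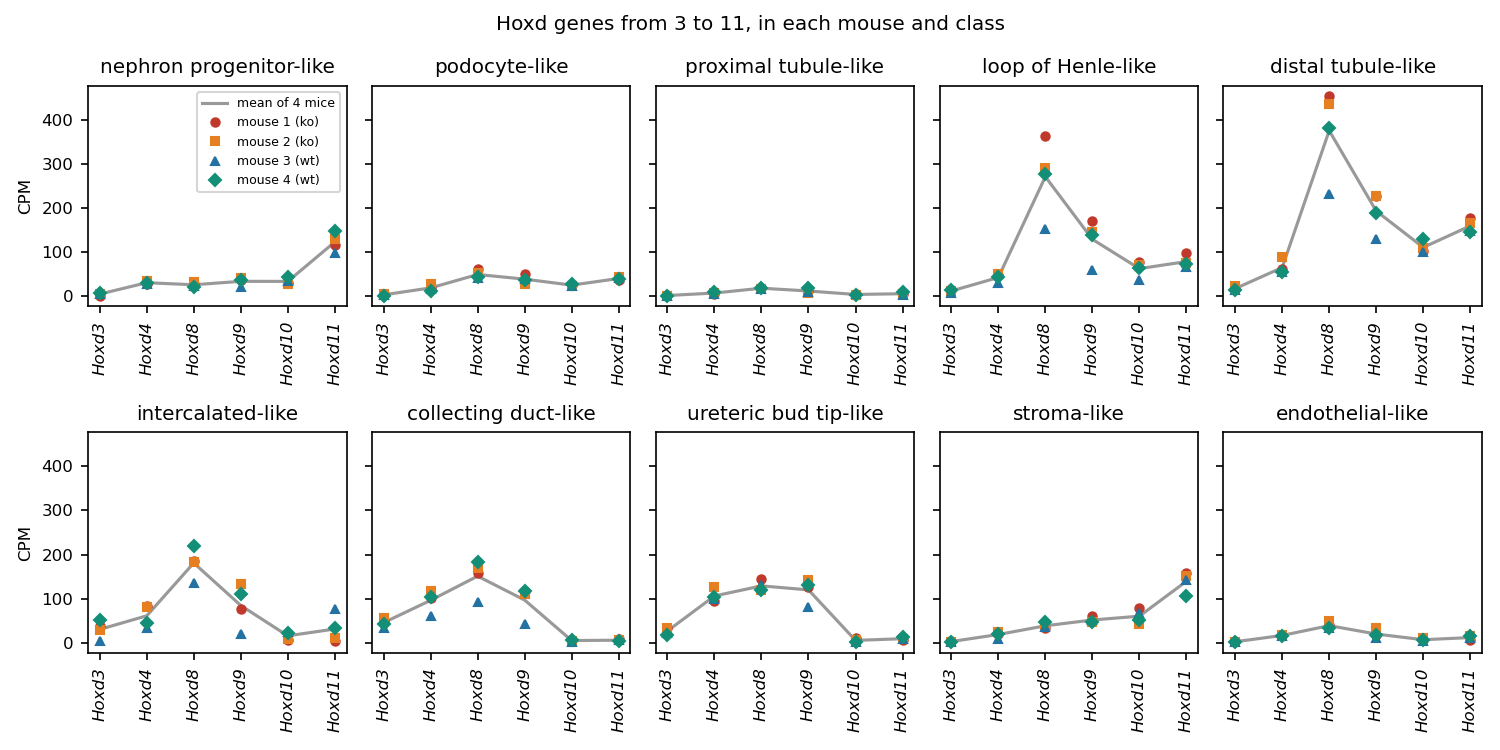
CPM of Hoxd3 to Hoxd11 (horizontal axis, in the order of their numbers) in 10 classes, with a point for each of the 4 mice and a line through their mean. In ureteric bud tip-like cells the line drops from 120.0 CPM at Hoxd9 to 5.71 at Hoxd10, and in distal tubule-like cells it is still at 111 CPM at Hoxd10.

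Within the nephron, Hoxd8 was highest in the distal classes. It was at 454, 434, 231 and 382 CPM in distal tubule-like cells and at 363.5, 290, 153 and 277 in loop of Henle-like cells. NPC-like cells had 27.3, 32.5, 23.4 and 22.2 CPM, and proximal tubule-like cells 20, 17.7, 17.1 and 19.4. The distal classes did not overlap with the other 2, and mouse 3 was the lowest in both of them. Hoxd genes as a sum were at 925 ± 171 CPM in distal tubule-like, 598 ± 176 in loop of Henle-like, 258 ± 36.3 in NPC-like and 51.4 ± 8.72 in proximal tubule-like cells, where no Hoxd gene passed the free RNA measure.

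Hoxc genes had another order. They were at 476, 564, 397 and 491 CPM in NPC-like cells and at 329, 382, 341 and 437 in podocyte-like cells. NPC-like cells were named from markers such as Six2 and Cited1. Of these cells, the 334 of cluster 9 scored nearly as high for renal vesicle markers (mean log2 ratio 1.326, against 1.447). Hoxc genes were at 435, 425, 281 and 337 CPM in cluster 8, led by Pcp4, Lsp1 and Hp, with Wt1 among its leading genes. Cluster 3, with Osr2 and Cdh6 among its leading genes, had 179 ± 20.2 CPM. The proximal tubule-like (46.1 ± 11.4), loop of Henle-like (58.4 ± 23.2) and distal tubule-like cells (25.8 ± 9.57) had less in every mouse. In distal tubule-like cells no Hoxc gene passed the free RNA measure, whose expected sum was 16.8 CPM.

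Members of the Hoxc cluster moved together among these classes. Hoxc9 was at 106, 117, 75.5 and 95.3 CPM in NPC-like cells and at 2.15, 4.23, 1.02 and 6.57 in distal tubule-like cells. Hoxc8 was at 106, 108.5, 77.6 and 87.5 CPM in NPC-like cells and highest, with a wide spread, in podocyte-like cells (117, 62, 110 and 165). All 4 mice had more Hoxc8 and Hoxc9 in NPC-like than in distal tubule-like cells. Hoxc4, the first gene of the cluster towards the head, was at 22.4, 35.6, 22.2 and 23.7 CPM in NPC-like cells and at 1.84 ± 0.862 in proximal tubule-like cells, near the 1.24 expected from free RNA.

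The Hoxa cluster was found across the nephron and the interstitium. Hoxa10 was at 127, 115, 157 and 141 CPM in NPC-like cells, at 185, 177, 145 and 112 in stroma-like cells and at 40.3, 40.8, 39.7 and 47.3 in proximal tubule-like cells. Hoxa9 was at 88.6, 89.9, 116 and 92.2 CPM in NPC-like cells and at 90.1, 149, 105 and 140 in distal tubule-like cells, values that overlapped. Hoxa7 was at 51.6, 46.3, 18 and 44.3 CPM in proximal tubule-like cells, and mouse 3 was the lowest there as well as in loop of Henle-like (80.4, 86.5, 33.4 and 78.4) and podocyte-like cells (98.2, 90.7, 34.7 and 80.4). Of the Hox genes in proximal tubule-like cells, the highest mean was that of Hoxa9, 60.7 ± 10.4 CPM.

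The paralogs of groups 10 and 11 set the nephron progenitors and the stroma apart from the ureteric tree. Group 11 genes summed to 168, 184, 152 and 220 CPM in NPC-like, 217, 216, 194 and 150 in stroma-like, and 188, 186, 173 and 173 in distal tubule-like cells. These values overlapped. They summed to 12.1, 7.14, 7.19 and 4.45 CPM in collecting duct-like and to 13.1, 14.5, 11.3 and 17.6 in proximal tubule-like cells. Hoxd11 made up most of the group, at 117, 131, 97.4 and 147.6 CPM in NPC-like and 157, 152, 143 and 105 in stroma-like cells. Hoxa11 was at 36, 37.2, 34.5 and 57.2 CPM in NPC-like and 56.3, 54.7, 40.1 and 32.1 in stroma-like cells. Hoxc11 was the scarcest of the 3, at 14.6, 15.5, 20.1 and 15.5 CPM in NPC-like and 3.52, 9.82, 10 and 12.8 in stroma-like cells. NPC-like cells had more Hoxc11 than stroma-like cells in every mouse. Hoxd12, the next gene of its cluster, passed the free RNA measure in NPC-like cells alone, at 1.95, 3.1, 3.9 and 6.36 CPM.

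Group 10 was also low in proximal tubule-like and collecting duct-like cells, with 339 ± 27.7 CPM in NPC-like, 303.5 ± 35.1 in stroma-like, 227 ± 31 in distal tubule-like, 64.4 ± 9.07 in proximal tubule-like and 20.3 ± 2.3 in collecting duct-like cells. Its members differed in their stronghold: Hoxc10 had its highest mean in NPC-like cells (170.5 ± 22.4 CPM), Hoxa10 in cluster 6 (181 ± 23.7) and Hoxd10 in distal tubule-like cells (111 ± 13.5). Stroma-like cells had 88.3 ± 17.7 CPM of Hoxc10 and 78.6, 43.5, 68.6 and 51.3 of Hoxd10.

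In terms of position along the clusters, groups 9 to 13 summed to 800 ± 76 CPM and groups 1 to 8 to 686 ± 82.7 in NPC-like cells. Stroma-like cells also had more of the former, 687 ± 84.8 against 447 ± 21.7. In ureteric bud tip-like cells the order was turned, with 513 ± 30.7 CPM of groups 9 to 13 and 1463 ± 143 of groups 1 to 8, and likewise in collecting duct-like cells (400 ± 57 and 1216 ± 225). The direction was the same in all 4 mice in the ureteric and the stroma-like cells, and in NPC-like cells also. The order of the ureteric classes was not particular to them. Groups 9 to 13 took 31.4% of Hox UMIs in loop of Henle-like, 36.6% in proximal tubule-like, 38.2% in distal tubule-like and 40.9% in podocyte-like cells. By the mean they were the larger part only in NPC-like and stroma-like cells, cluster 8 (52%) and cluster 17 (54.3%).

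In stroma-like cells, the collagen-producing interstitium, most Hoxb genes were near free RNA. Only Hoxb2 and Hoxb3 passed the measure there, and only Hoxb2 and Hoxb4 in podocyte-like cells, against 8 Hoxb genes in NPC-like, proximal tubule-like and both ureteric classes. Hoxa (367 ± 60.3 CPM), Hoxd (313 ± 33.1) and Hoxc genes (246 ± 25.8) made up the rest. Mural-like cells, which surround vessels and include renin cells, had 262 ± 39.2 CPM of Hoxc and 310 ± 72.6 of Hoxb, with Hoxc10 at 120, 102, 72.5 and 142. In endothelial-like cells 5 members passed the measure, Hoxa5, Hoxa6, Hoxa7, Hoxa9 and Hoxb5. Hoxa7 was the highest of these, at 92.7, 69.7, 52.7 and 76 CPM, with 11.9 expected from free RNA.

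The share of cells with a Hox UMI was also compared at equal depth. After each cell had been thinned to 6900 UMIs (the smallest cell had 6902, so none was left out), a Hoxc UMI was found in 93.8%, 90.9%, 92% and 94.3% of NPC-like cells of mice 1 to 4 (median depth before thinning 18232.5 UMIs over the class). In immune-like cells, which had no Hox gene above free RNA, the shares were 13.9%, 11.9%, 8.33% and 29.4% (median depth 13492.5). Ureteric bud tip-like cells, with 0%, 10.7%, 5.06% and 12.5%, and collecting duct-like cells, with 9.71%, 7.38%, 7.69% and 8.43%, lay within or below this range, in which the share of free RNA was higher (48.2%, against 17.7% in both ureteric classes). Proximal tubule-like cells were at 20.2%, 18.9%, 23.1% and 30.3%, and had been at 45.5%, 49.4%, 62.6% and 62% before thinning. Since 3 Hoxc genes passed the free RNA measure in proximal tubule-like cells, a share within the immune-like range does not show that a gene is absent. The unthinned shares were at least 99.7% in NPC-like, 19.4% to 38.2% in immune-like, 9.38% to 31.2% in ureteric bud tip-like and 17.2% to 20.5% in collecting duct-like cells. A thinned cell held UMIs of 9.14 Hox genes on average in cluster 6, 8.27 in distal tubule-like, 7.73 in NPC-like, 7.36 in ureteric bud tip-like, 3.21 in proximal tubule-like and 1.83 in immune-like cells. Before thinning the means were 14.4, 13.5, 14.4, 10.8, 8.53 and 3.86, in the same order. Proximal tubule-like cells had a median of 23812 UMIs, and stroma-like cells, with 10807, held 8.38 Hox genes before thinning.

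The comparison of genotypes asked whether the loss of Trim28 in the nephron lineage was accompanied by a change of Hox levels. No Hox gene was called in any of 20 comparisons (edgeR quasi-likelihood test on counts summed per mouse, 2 against 2, adjusted p below 0.05 over all genes tested). In NPC-like cells, 1.9% of all genes tested were called and 0 of 29 Hox genes. Of these 29, 5 had an unadjusted p below 0.05, all of them lower in the Trim28Δ/Δ mice, which is 17.2% against 9.94% of all genes, and DESeq2 called 0. This count was 1 by DESeq2, where 597 genes in all had such a p and 12549 were given an adjusted p. It was between 2 and 7 with other clusterings and tag assignments or without cells marked as doublets (995 to 1166 of all genes). The count also moved with the mouse left out, and without mouse 4 the genes went both ways. The median log2 change of the tested Hox genes was −0.19, against −0.01 over all genes, and it was 0.0015 without mouse 4 and −0.08 without mouse 1. For 18 of the 29 the 95% interval lay within a change of 2-fold either way.

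Hoxb9 had the largest change in NPC-like cells. It was at 21.4 and 38.8 CPM in the Trim28Δ/Δ mice and at 50.4 and 77 in the Trim28f/f mice, and the groups did not overlap (log2 change −1.21, 95% interval −1.91 to −0.51, edgeR adjusted p = 0.113). Hoxa3 was next, at 9.74 and 12.4 against 19.2 and 15.8 CPM (−0.77, interval −1.5 to −0.04, adjusted p = 0.467 by edgeR). The group 11 gene Hoxa11 was at 36 and 37.2 against 34.5 and 57.2 CPM, and Hoxc11 and Hoxd11 also overlapped between genotypes. The 5 genes at an unadjusted p below 0.05 were Hoxb9, Hoxa10, Hoxa3, Hoxb3 and Hoxd10. In the Hoxc cluster, Hoxc8 and Hoxc9 had log2 changes of 0.24 and 0.24, Hoxc10 of −0.13 and Hoxc11 of −0.36. With 1 mouse left out, edgeR called 4 Hox genes without mouse 3 (Hoxa11, Hoxb6, Hoxb9 and Hoxd10) and 3 without mouse 4 (Hoxa9, Hoxa10 and Hoxb9), all lower in the Trim28Δ/Δ mice, and 0 without mouse 1 or mouse 2, a fit in which 1 mouse stands for its genotype and takes its spread from the other pair. In these fits 6.83% (without mouse 3) and 13.2% (without mouse 4) of all genes were called, against 15.4% and 11.5% of the Hox genes. The class held 48 and 66 NPC-like cells in the Trim28Δ/Δ mice and 175 and 351 in the Trim28f/f mice. It joins cluster 10, led by Cited1, and cluster 9, with Tmem100 and Wnt4 among its leading genes, and cluster 10 held 14 and 28 of the cells of the Trim28Δ/Δ mice and 67 and 197 of those of the Trim28f/f mice. The part of this mix in the changes within the class was not tested.

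In proximal tubule-like cells, 0 of 26 Hox genes were called by edgeR (0.389% of all genes) and 0 of 27 by DESeq2, and 2 had an unadjusted p below 0.05 (7.69%, against 10.6% of all genes). Hoxc4 had the largest change, at 0.922 and 1.45 against 2.93 and 2.06 CPM (log2 change −1.0, interval −2.24 to 0.23, edgeR adjusted p = 0.574), values close to those expected from free RNA. Hoxc8 was at 5.38 and 6.43 against 8.37 and 11.9 CPM (−0.82, interval −1.47 to −0.17, adjusted p = 0.349 by edgeR). Hoxb2 was the other gene at an unadjusted p below 0.05, with a log2 change of 0.59. The median over the tested Hox genes was −0.20, against −0.01 over all genes, and turned to 0.10 without mouse 4. Without mouse 3, edgeR called 4 Hox genes (Hoxb2, Hoxc8, Hoxc10 and Hoxd9) and without mouse 4 it called 3 (Hoxa7, Hoxa9 and Hoxb2), or 14.8% and 11.1% of those tested, against 5.95% and 15.1% of all genes.

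Stroma-like cells lie outside the Cre lineage. Their estimates were less precise, with a median SE of the log2 change of 0.33, against 0.27 in NPC-like and 0.27 in proximal tubule-like cells. There, edgeR called 0 of 24 Hox genes and DESeq2 0 of 35, 0 had an unadjusted p below 0.05 by either, and 0% of all genes were called. Hoxd4 had the largest change, at 21.1 and 25.3 against 8.48 and 21.1 CPM (log2 change 0.62, interval −0.45 to 1.69, edgeR adjusted p = 1), followed by Hoxa11 at 56.3 and 54.7 against 40.1 and 32.1 (0.57, interval −0.06 to 1.2). The median over the tested Hox genes was 0.05, and it was −0.08 without mouse 1, −0.03 by DESeq2 and 0.15 without mouse 4.

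Among the other classes of the nephron, 0 of 21 Hox genes were called in distal tubule-like cells (0.439% of all genes). By DESeq2, 3 Hox genes and 263 genes in all had an unadjusted p below 0.05, and 9878 genes were given an adjusted p. By edgeR 6 Hox genes did (28.6%, against 7.76% of all genes), a count that moved with the mouse left out. Of these 6, Hoxb4, Hoxb7, Hoxb8 and Hoxd9 were higher and Hoxc10 and Hoxa11 lower in the Trim28Δ/Δ mice. The median over the tested Hox genes was 0.42 (0.17 without mouse 2 and 0.19 without mouse 3), and mouse 3 was the lowest of the 4 for Hoxb8 and Hoxb7. Loop of Henle-like cells had 0 of 25 called (0.2% of all genes). At an unadjusted p below 0.05 there were 2 (8%, against 7.55% of all genes), both lower in the Trim28Δ/Δ mice. The median over the tested Hox genes was 0.29 there (0.08 without mouse 3 and 0.47 without mouse 4). Podocyte-like cells had 0 of 18 called (0.483%), with 1 at an unadjusted p below 0.05 (5.56%, against 8.42%). DESeq2 called 0 Hox genes in these 3 classes. Without mouse 4, the median log2 change of the tested Hox genes was 0.48 in distal tubule-like and 0.04 in podocyte-like cells. In podocyte-like cells it was −0.02 with all mice and −0.001 without mouse 3.

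In cluster 6, 1.12% of all genes and 0 of 25 Hox genes were called, with 4 at an unadjusted p below 0.05 (16%, against 9.22% of all genes). The smallest adjusted p of any Hox gene and class was found here for Hoxc10, at 33.3 and 30 against 54.6 and 57.8 CPM (log2 change −0.87, edgeR adjusted p = 0.061). The groups did not overlap. In the other numbered clusters no Hox gene was called either, among 28 tested in cluster 1 (0.187% of all genes), 24 in cluster 3 (0.296%), 24 in cluster 5 (0.285%), 26 in cluster 8 (0.181%) and 21 in cluster 17 (0.0147%). At an unadjusted p below 0.05 there were 4, 2, 1, 2 and 4 Hox genes, or 14.3%, 8.33%, 4.17%, 7.69% and 19% of those tested, against 6.35%, 7%, 8.14%, 5.94% and 6.65% of all genes. DESeq2 called 0 in all 6 of these clusters. With all mice, the median log2 change of the tested Hox genes was −0.03, 0.15, −0.08 and 0.08 in clusters 1, 3, 5 and 6. It was 0.10, 0.15, 0.19 and −0.01 without mouse 4, and −0.08, 0.12, −0.17 and 0.08 without mouse 3. Cluster 16 was not tested, as mouse 3 had 3 cells in it.

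Outside the nephron, edgeR called 0 Hox genes in the ureteric bud tip-like (17 tested, 0.0203% of all genes called), collecting duct-like (19 tested, 0%), intercalated-like (15 tested, 0.0799%), mural-like (16 tested, 0.0401%), endothelial-like (21 tested, 0%), immune-like (12 tested, 0%) and erythroid-like cells (10 tested, 0%). DESeq2 called 0 as well, but gave an adjusted p to only 2 Hox genes in intercalated-like cells. The counts at an unadjusted p below 0.05 were 1, 1, 6, 1, 1, 0 and 0 by edgeR. The 6 in intercalated-like cells were 40% of those tested, against 9.43% of all genes, and 4 of them were higher in the Trim28Δ/Δ mice. The count depended on the mouse left out and on the processing. It was 0 of 13 at a clustering resolution of 0.4 and stayed at 6, with 4 higher, at 1.2. With tags assigned by k-means it was 4, and by the share of the highest tag 3, with 1 higher each time. Without cells marked as doublets the class was not tested. In these cells the median log2 change of the tested Hox genes was 0.52, and it was 0.14 without mouse 3 and 1.17 without mouse 4. In the other classes the shares of all genes were 4.1%, 3.4%, 4.2%, 6.59%, 5.59% and 3.33%, in the same order. In ureteric bud tip-like, collecting duct-like and endothelial-like cells the median log2 change of the tested Hox genes was 0.13, 0.23 and −0.21. It was 0.15, 0.44 and −0.13 without mouse 4, and 0.04, 0.05 and −0.18 without mouse 3. Over all 19 classes, 43 of 401 tests of a Hox gene (10.7%) had an unadjusted p below 0.05, against 6.92% of the tests of all genes, and in 200 of 401 the 95% interval lay within 2-fold. Of the members, 6 were too scarce to be tested anywhere (Hoxa13, Hoxb1, Hoxb13, Hoxc12, Hoxc13 and Hoxd13).

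**Figure D4:**
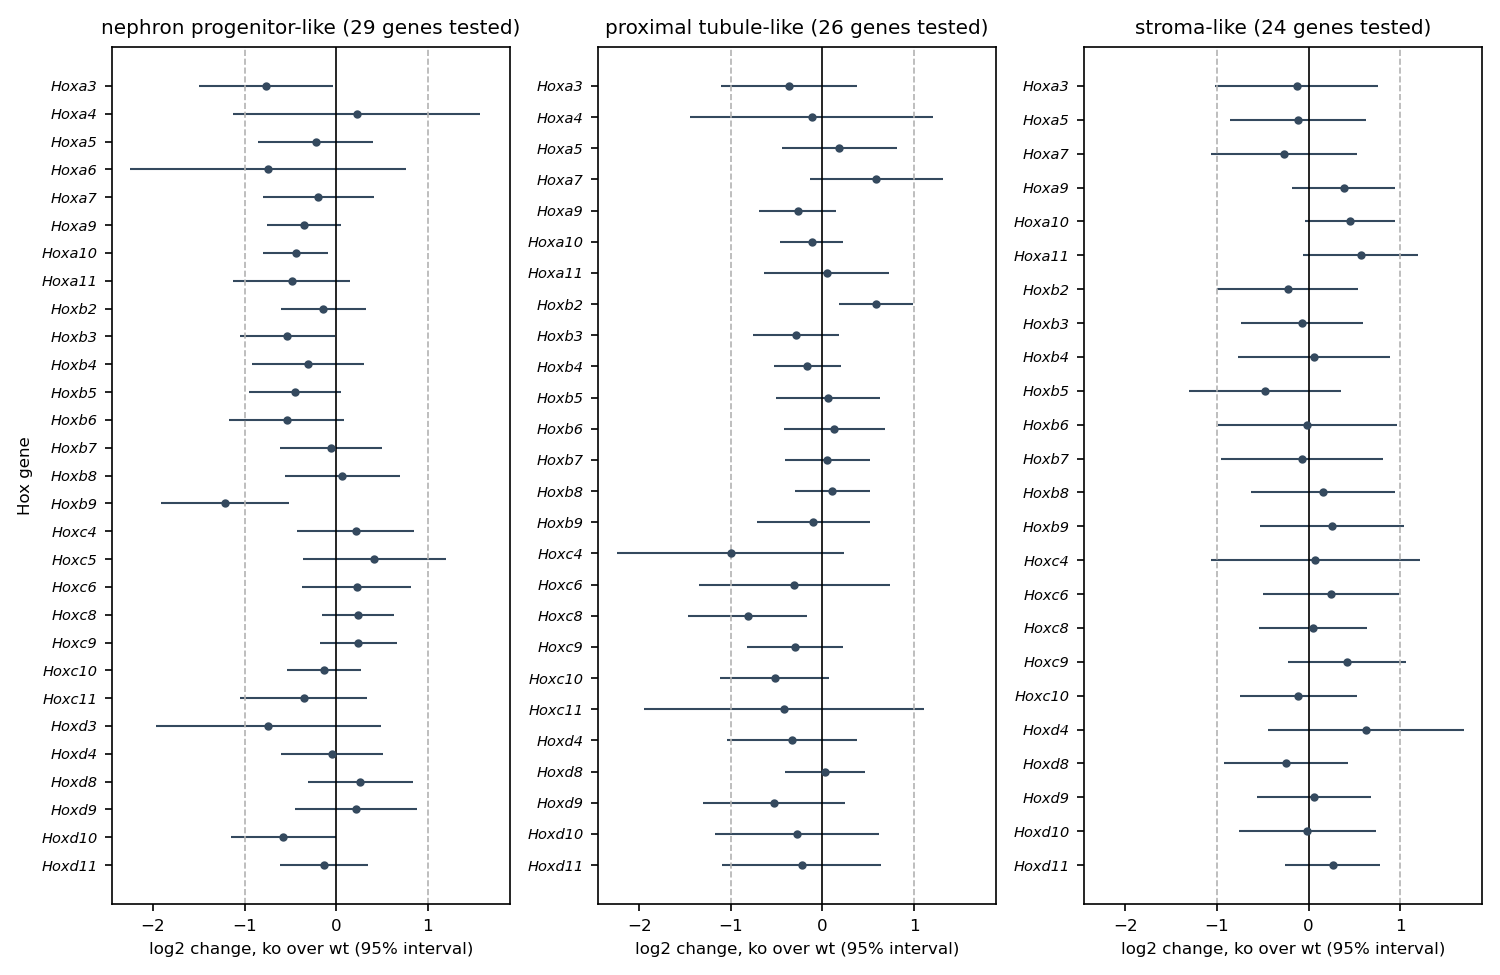
Log2 change of each tested Hox gene, Trim28Δ/Δ against Trim28f/f, in NPC-like, proximal tubule-like and stroma-like cells, as points with 95% intervals, with dashed lines at a change of 2-fold either way. The interval of Hoxb9 in NPC-like cells runs from −1.91 to −0.51, and no gene reached an adjusted p below 0.05.

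Summed over all cells of a mouse, 0 of 33 Hox genes were called by edgeR (0.164% of all genes) and 10 had an unadjusted p below 0.05 (30.3%, against 15.4% of all genes), of which 9 were lower in the Trim28Δ/Δ mice. The median log2 change of the tested Hox genes was −0.23, against −0.01 over all genes. With 1 mouse left out it lay between −0.26 (without mouse 2) and −0.11 (without mouse 4). Without mouse 4, the genes at an unadjusted p below 0.05 went both ways. DESeq2 called 3, Hoxc8, Hoxc10 and Hoxc11, and 3.68% of all genes. Hoxc10 was at 32.4 and 37.7 against 49 and 78 CPM (log2 change −0.89, edgeR adjusted p = 0.184), and Hoxc11 at 2.35 and 2.99 against 6.12 and 6.54 (−1.27, adjusted p = 0.106). All 7 Hoxc genes tested were below 0. Without mouse 3, edgeR called 8 Hox genes and without mouse 4 it called 10, among them Hoxc8, Hoxc10 and Hoxc11 both times, and 4 of the 10 were higher in the Trim28Δ/Δ mice. These were 23.5% and 29.4% of the Hox genes tested, against 8.42% and 25.9% of all genes. NPC-like cells, in which Hoxc levels were highest, made up 3.37% and 4.26% of the cells of the Trim28Δ/Δ mice and 8.2% and 19.9% of those of the Trim28f/f mice, and the part of this difference in the sums was not tested. Within classes, the direction of the Hoxc sum varied. Both Trim28Δ/Δ mice were below both Trim28f/f mice in 6 of the 19 classes with all 4 mice (cluster 1, cluster 6, proximal tubule-like, loop of Henle-like, distal tubule-like and endothelial-like cells), above them in 2 (clusters 8 and 17), and overlapped with them in 11, NPC-like cells among these, with 476 and 564 against 397 and 491 CPM. In loop of Henle-like cells, for example, the sums were 34.9 and 45.1 against 66.8 and 86.9 CPM. In distal tubule-like and endothelial-like cells no Hoxc gene passed the free RNA measure. These orders are a description, were counted for the Hoxc sum only, and come from the same 4 mice in every class. How often all genes show such an order was not counted, so the number of classes is not read as a result about Hoxc. With 2 mice against 2 even groups that do not overlap cannot go below p = 0.333 in an exact permutation test (two-sided). Fewer cells of a type and less RNA per cell cannot be told apart in sums over all cells.

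Shares of cells with a UMI of a Hox cluster are given as a description, since the exact permutation test (two-sided) cannot go below p = 0.333 with 2 mice against 2, and no other test of them was run. In proximal tubule-like cells a thinned Hoxc UMI was found in 19.6% of cells on average in the Trim28Δ/Δ and 26.7% in the Trim28f/f mice, a difference of −7.12 percentage points (−14.9 without thinning). After thinning, the widest differences over all classes were those of Hoxd in podocyte-like cells (45.2% and 55.6% against 72% and 71.4%) and of Hoxa in cluster 8 (91.8% and 85.7% against 76.6% and 65.4%). Without thinning these were −14.3 and 3.85 percentage points. The widest were then those of Hoxa in intercalated-like cells (−23.7) and of Hoxc in loop of Henle-like cells (−22.2).

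Of the genes that work with HOX proteins, the TALE homeodomain cofactors were measured with 9 members. Over 19 classes, 2 of 108 tests were called by edgeR (0.337% of the tests of all genes were), both of Meis2 and both lower in the Trim28Δ/Δ mice, and DESeq2 called Meis2 in NPC-like cells only. At an unadjusted p below 0.05 there were 12 of 108, 9 of them lower. Meis2 was at 271 and 296 against 483 and 396 CPM in NPC-like cells (log2 change −0.77, edgeR adjusted p = 0.018), and at 21.9 and 17.6 against 39.9 and 42.3 in cluster 6 (−1.11, adjusted p = 0.037 by edgeR).

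Of the partners and targets of the group 11 genes, some changed in NPC-like cells, where 1.9% of all genes were called. Of 5 (Six2, Eya1, Pax2, Gdnf and Itga8), 4 fell and none rose by edgeR, and DESeq2 called 3 of them (Six2, Pax2 and Itga8). Six2, the factor that keeps progenitors undifferentiated, was at 54.5 and 56.6 against 125 and 136.5 CPM (log2 change −1.37, edgeR adjusted p = 0.0042). Pax2 fell by 0.89 on the log2 scale, Eya1 by 0.86 and Itga8 by 1.45, with edgeR adjusted p of 0.010, 0.038 and 0.042. Gdnf, the ligand that calls out the ureteric bud, was at 7.79 and 15.5 against 19.5 and 24.6 CPM (adjusted p = 0.294 by edgeR). Six2, Eya1 and Itga8 are among the markers from which the class was named. In this class, cluster 10 held 14 of 48 and 28 of 66 cells of the Trim28Δ/Δ mice. For the Trim28f/f mice it held 67 of 175 and 197 of 351. The part of this mix in the falls was not tested. In tissue sections hybridized in situ, the study found the Six2 pattern seemingly unchanged, which is not a level per cell. By immunofluorescence it counted fewer Six2-positive cells along the kidney perimeter of Trim28Δ/Δ embryos. It also reported a lower frequency of nephron progenitors in its single-cell data. Both are numbers of cells and not levels per cell. In NPC-like cells Hoxd11 was at 117 and 131 against 97.4 and 147.6 CPM.

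Regulators of the Hox clusters did not pass the test in any class. Of 15 Polycomb group genes, which keep Hox genes silent, 0 of 230 tests over 19 classes were called by edgeR, with 7 at an unadjusted p below 0.05. Of 8 Trithorax group genes, which keep them active, 0 of 136 were called, with 5. The long noncoding RNAs and other transcripts of the 4 clusters, of which 13 of 14 listed were in the table, had 0 of 81 tests called, with 4, and 8 cell cycle genes 0 of 141, with 20. Over all genes, 0.337% of tests were called and 6.92% had an unadjusted p below 0.05. DESeq2 called 0 in these 4 lists.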

How the data were processed

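The gene expression and multiplexing libraries of the pool were analysed, and 6 bulk samples were not analysed here. The authors ran Cell Ranger (6.0.0 in the submitters' processing notes) and deposited its raw UMI counts for every barcode, neither normalized nor filtered. Their annotation was not stated in the sources used here. Gene positions came from GENCODE on GRCm38, which GEO's notes name.

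Barcodes with at least 6890 UMIs were called (order-of-magnitude rule, 24000 expected cells), and barcodes under 200 genes or over 10% mitochondrial UMIs were then removed. Mice were assigned with HTODemux of Seurat 5.3.0 (positive quantile 0.99), which set aside 6684 barcodes with several tags as doublets, 1435 with none and 4286 of tags that the deposited tag list does not name. Cells were normalized with sctransform 0.4.2 and clustered by Louvain (30 components, resolution 0.8) on 3000 variable genes without 16 genes of the Hox clusters. A cluster took the name of its best-scoring type if at least 3 markers were 1.5-fold higher and found in 10% of cells, their mean log2 ratio was at least 0.5, and its markers were at least as many as those of any other type in the 10 leading genes. With no marker of the type there, a ratio of at least 2 was needed. These thresholds were set after the clusters had been seen. The members, gene lists and markers were chosen with earlier results of these data known.

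Counts were summed per mouse and class (at least 10 cells in each mouse) and tested with edgeR 4.0.16 (filterByExpr, TMM, quasi-likelihood test, Benjamini-Hochberg over all genes, threshold 0.05). The libraries of 2 mice per genotype are separate animals by their tags. DESeq2 1.42.0, a minimum of 1 count, other tag assignments and clusterings, Scrublet (in scanpy 1.11.5), free RNA subtraction and leaving out each mouse were alternatives. Intervals of shares are exact (Clopper-Pearson) and, like the floor of 3 counts, cover counting error only. The fit was tested on simulated data. Of simulated 2-fold changes it recovered 44% in NPC-like, 66% in proximal tubule-like and 9.2% in stroma-like cells, and 53.5% over all cells. Many changes of this size would thus be missed. Named with values in every mouse were the 3 highest members of each cluster, the 2 with the largest change in NPC-like, proximal tubule-like and stroma-like cells, the members of groups 10 and 11, any member called in a class, and any member at 0. Other genes were named after their values were seen. The value of 1 listed cofactor is not reported here.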

Additional observations from a re-analysis of the deposited data

Results flagged for a closer look

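The summed Hox level of collecting duct-like cells was marked because 1 mouse lay far from the others. Mouse 3 (Trim28f/f) had 1196 CPM, and the other 3 mice had between 1708 and 1781 CPM. Chance alone marks about 1 in 20 such groups. In mouse 3, 168 collecting duct-like cells were in cluster 15, with 1198 CPM, whereas cluster 11 held those of mice 1, 2 and 4, with 1777, 1788 and 1713 CPM. In cluster 15 of mouse 3, Hoxd9 was at 42.1 CPM, against 117, 112 and 119 in cluster 11 of mice 1, 2 and 4. Hoxb7 was at 101 CPM, against 218, 219 and 192. Hoxb9 was at 239 CPM, against 274, 284 and 257, a smaller gap.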

How the results depend on the processing

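No paired analysis was possible because the 4 mice share no replicate number between genotypes, and the bulk samples, whose groups do share numbers, were not analysed here. Of 122 counts of called Hox genes under alternatives that kept all mice, 114 did not change. DESeq2 called 3 over all cells. A minimum of 1 count called 3 over all cells, 2 in cluster 6 and 2 in intercalated-like cells. These were 7.89%, 5.88% and 6.9% of the Hox genes tested, against 3.04%, 1.55% and 0.563% of all genes. It called 1 each in cluster 5, collecting duct-like, endothelial-like and loop of Henle-like cells. These were 2.94%, 3.03%, 3.03% and 2.86% of the Hox genes tested, against 1.72%, 1.89%, 1.6% and 2.4% of all genes. The cause was not tested. Leaving out 1 mouse gave 0 to 10 called over all cells, 0 to 12 in loop of Henle-like, 0 to 9 in cluster 1 and collecting duct-like, 0 to 7 in distal tubule-like, 0 to 6 in endothelial-like, 0 to 5 in cluster 6, 0 to 4 in clusters 3 and 5, intercalated-like, NPC-like and proximal tubule-like, 0 to 2 in ureteric bud tip-like and 0 to 1 in podocyte-like cells, and all calls came with mouse 3 or mouse 4 left out. Of 103 summed levels, 90 moved by less than the SD. For podocyte-like cells the sum was 1146 CPM by HTODemux with k-means, 989 without the cells marked by Scrublet and 1060 as a mean over cells. For proximal tubule-like cells it was 689.7 CPM by k-means, 614 by the share of the highest tag and 469 with free RNA subtracted. Subtracting free RNA gave 2159 CPM in ureteric bud tip-like, 504 in endothelial-like, 0 in immune-like and 180.0 in erythroid-like cells. Without the cells marked by Scrublet, endothelial-like cells had 617 and immune-like cells 187 CPM, and immune-like cells had 322 as a mean over cells. Without thinning, the difference in shares between genotypes turned for Hoxa (1.81 percentage points) and Hoxd (−4.31) in proximal tubule-like, Hoxb in stroma-like (1.69) and Hoxc in NPC-like cells (0.143). The 12 log2 changes tried kept their direction and side of the threshold with all mice kept. With 2 mice per genotype, the 95% interval lay within 2-fold for 200 of 401 tests of a Hox gene, so a count of 0 does not show that levels were equal.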
